A study of Mus musculus with 9 samples.

Results

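Retinoic acid, the active form of vitamin A in most tissues, is made in a pair of oxidation steps. Retinol dehydrogenases such as RDH10 turn retinol into retinal in a reversible step, and retinaldehyde dehydrogenases of the ALDH1A family then turn retinal into retinoic acid in a step that is not reversed. The acid binds nuclear receptors that act as dimers with RXR partners, and in the kidney it is known for its part in nephron formation, while the adult proximal tubule recovers filtered retinol with its carrier protein. The genes described here are Aldh1a1, Aldh1a2, Aldh1a7 and Rdh10. They were taken by gene name from the kidney genes that the authors had listed under either of their comparisons, and all 4 members were found among the 489 distinct genes listed.

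RNA was sequenced from whole kidney of male ICR mice, an outbred stock, in 3 groups of 3 mice. Young mice were 2 months old and untreated, old mice were 20 months old and untreated, and 3HB mice were 20 months old and had been given 3-hydroxybutyrate, a ketone body, as its sodium salt (1 g/L in the water they drank, starting at an age of 11 months). The genes came from a list of 389 for young against old and a list of 113 for 3HB against old, with 13 genes on both, and the criterion for listing was not given in the sources used here. Aldh1a1, Aldh1a2 and Aldh1a7 were on the age list only, and Rdh10 was on the 3HB list only. A member's contrast on the list that brought it in is therefore given as a description with no test, and exact tests were used only on the contrast for which it was not listed.

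Values are the normalized expression levels deposited for each mouse. Their unit was not given in the sources used here. StringTie, which was among the tools named, scales its levels for transcript length, and comparisons of level between genes assume that scaling. Read depth was unknown, and the number of mice sets the precision. In whole tissue, fewer cells of a type and less RNA per cell cannot be told apart. The tissue could be checked against few markers. Lrp2 was the only one of 9 proximal tubule markers among the listed genes, and it was measured at 68.59 or above in all 9 mice. None of 5 skeletal muscle markers was among the listed genes, and the study's methods name muscle as the RNA source where the sample labels and the rest of the study's text name kidney.

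Aldh1a1 (ENSMUSG00000053279) lies at chr19:20492715-20643465 on the plus strand of GRCm38. Aldh1a7 (ENSMUSG00000024747), its close paralog, lies at chr19:20692953-20727562 on the minus strand, 49487 bases away with 0 annotated genes between them. Aldh1a2 (ENSMUSG00000013584) lies at chr9:71215789-71296243 on the plus strand, and Rdh10 (ENSMUSG00000025921) at chr1:16105774-16133734 on the plus strand. The 250 bases before the transcription start were found in RefSeq (GRCm38.p6) for 3 of the 4 members and are shown because Aldh1a1 and Aldh1a7, neighbours with opposite differences between young and old, are nearly the same just before their starts. RefSeq holds 2 starts for Aldh1a1, 109385 bases apart, and the downstream one is shown. Sequences run 5′ to 3′ in the direction of the gene. In Aldh1a1 (chr19:20601718-20601967, plus strand) and Aldh1a7 (chr19:20727557-20727806, minus strand) the capitals mark the longest stretch identical in both, and in Aldh1a2 (chr9:71215539-71215788, plus strand) they mark the octamer described after the sequences.
Aldh1a1: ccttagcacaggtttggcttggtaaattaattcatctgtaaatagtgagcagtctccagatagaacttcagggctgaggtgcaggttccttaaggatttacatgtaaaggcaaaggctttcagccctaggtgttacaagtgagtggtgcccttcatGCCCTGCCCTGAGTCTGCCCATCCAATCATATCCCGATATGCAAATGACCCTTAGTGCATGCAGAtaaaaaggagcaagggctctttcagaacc
Aldh1a7: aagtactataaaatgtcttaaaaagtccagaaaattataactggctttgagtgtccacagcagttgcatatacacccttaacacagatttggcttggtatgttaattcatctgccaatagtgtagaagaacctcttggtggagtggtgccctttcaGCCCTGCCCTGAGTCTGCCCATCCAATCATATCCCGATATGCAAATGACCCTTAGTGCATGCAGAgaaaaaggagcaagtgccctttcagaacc
Aldh1a2: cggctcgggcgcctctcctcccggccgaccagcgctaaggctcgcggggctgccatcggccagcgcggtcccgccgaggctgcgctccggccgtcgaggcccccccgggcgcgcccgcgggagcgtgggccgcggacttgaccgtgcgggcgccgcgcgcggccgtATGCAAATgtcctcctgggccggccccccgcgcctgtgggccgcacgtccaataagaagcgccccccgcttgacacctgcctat

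The identical stretch was 65 bases long and ended 29 bases before either start. Over the last 100 bases, Aldh1a1 and Aldh1a7 shared 94 bases at the same position, and over the last 150 the identity fell to 72%. Aldh1a1 and Aldh1a2 shared 20 of the last 100. The windows of Aldh1a1 and Aldh1a7 had a GC content of 46.4% and 43.2% with 1 CpG each, whereas that of Aldh1a2 had 77.6% with 40 CpGs. The octamer ATGCAAAT, the site of POU-domain factors, was searched on both strands after the sequences had been seen. It occurred once in each of the 3 windows, first base 56 bases before the start in Aldh1a1 and Aldh1a7 and 84 in Aldh1a2, and in 1.60% of all 32851 promoter windows of this length. A CCAAT box, which did not overlap the octamer, began 72 bases before the start in Aldh1a1 and Aldh1a7 and 36 in Aldh1a2, and CCAAT on either strand was in 33.9% of windows. AGGTCA, a spelling of an arm of a retinoic acid response element, was in 0 of the 3 windows and in 14.0% of all windows. Only that exact spelling was searched, so the windows may hold such an arm in another spelling. TATAAA was found in the Aldh1a7 window alone and in 12.4% of all windows. In Aldh1a7 it lay at the end of the window farthest from the start. The search took exact letters at any position, so it does not tell which gene has a TATA box.

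The transcripts of Aldh1a1 and Aldh1a7 were 88.9% identical over 2069 aligned bases, with a longest shared run of 100 bases. Of the 2004 windows of 50 bases in the Aldh1a1 transcript, 151 (7.53%) occurred unchanged in Aldh1a7, and 0 of 1904 windows of 150 bases did, which is the read length in the study's methods. Shorter stretches of a read can fit either gene, so part of their signal may have been split between them, and their sum is given beside each. Aldh1a2 was 70.2% identical to Aldh1a1 and shared no run above 20 bases.

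**Figure D1:**
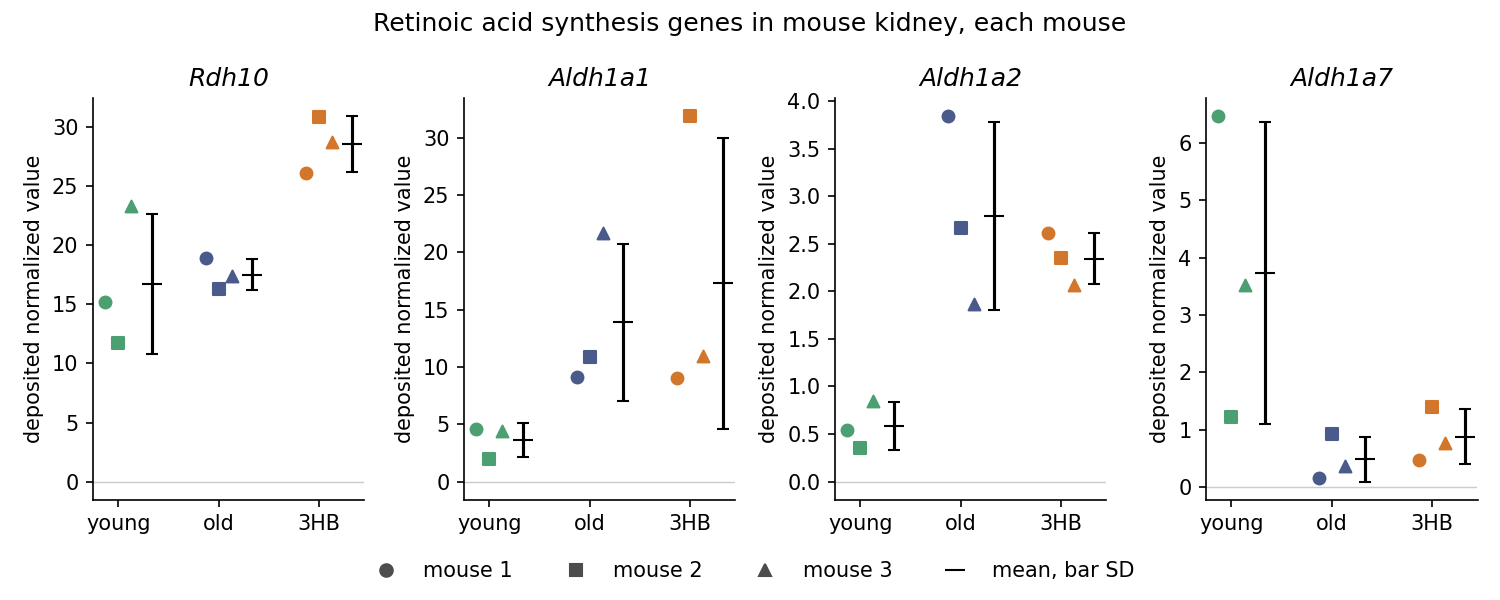
Deposited normalized value (y axis, linear, own scale in each panel) of Rdh10, Aldh1a1, Aldh1a2 and Aldh1a7 in each of 3 young, 3 old and 3 3HB mice, with black marks for the mean and bars for the SD. Aldh1a1 and Aldh1a2 were higher and Aldh1a7 lower in all old mice than in any young mouse, and Rdh10 was higher in all 3HB mice (26.12 to 30.82) than in any old mouse (16.29 to 18.92).

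Rdh10 encodes the membrane-bound dehydrogenase that makes retinal from retinol. It was higher in 3HB mice than in old mice and had similar means in old and young mice. Its level was 18.92, 16.29 and 17.37 in old mice 1 to 3 and 26.12, 30.82 and 28.75 in 3HB mice 1 to 3. Every 3HB mouse was above every old mouse, with a mean of 28.6 ± 2.36 against 17.5 ± 1.32 (SD, n = 3 mice each), a 1.63-fold ratio of means and a log2 difference of 0.67 ± 0.09 (SE) on the log2(value + 1) scale. Rdh10 was on the 3HB list for this contrast, where 89.4% of the 113 listed genes had no overlap between the groups, so the separation is a description of a listed gene.

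For age, Rdh10 was not listed and could be tested. Young mice 1 to 3 were at 15.20, 11.72 and 23.30, with a mean of 16.7 ± 5.94 (SD, n = 3). Young mouse 3 was above all old mice and the other young mice were below them, so the groups overlapped. The log2 difference of old minus young was 0.11 ± 0.28 (SE), two-sided exact permutation p = 0.7, where 0.1 is the smallest p that 3 against 3 mice allow. Without young mouse 2 the difference was -0.10, without young mouse 3 it was 0.37, and without old mouse 1 or young mouse 1 it was 0.06 or 0.07. Among the 100 genes listed for 3HB only, 11% had old and young mice that did not overlap, and Rdh10 was not one of them. All 3HB mice were also above the highest young mouse. How many of the listed genes had no overlap between 3HB and young mice was not counted, for Rdh10 or for the other members.

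Young mouse 3, the highest young mouse for Rdh10, was also the highest young mouse for 40 of the 43 genes listed for 3HB that were higher in 3HB mice (93.0%). Over all 489 listed genes it was the highest young mouse for 192 (39.3%). The 3 genes most like Rdh10 over the 9 mice, by Pearson correlation of log2(value + 1) among 446 genes, were Dnajc3 (r = 0.99), Dock8 (r = 0.97) and Hspa4l (r = 0.97). Dnajc3 encodes a co-chaperone of the endoplasmic reticulum, Dock8 an exchange factor known from immune cells and Hspa4l a chaperone related to HSP110. With the group means taken out, the correlations were 0.97, 0.94 and 0.96. All of them were on the same list as Rdh10, and the correlated values come from the same 9 libraries, so these are descriptions with no p.

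**Figure D2:**
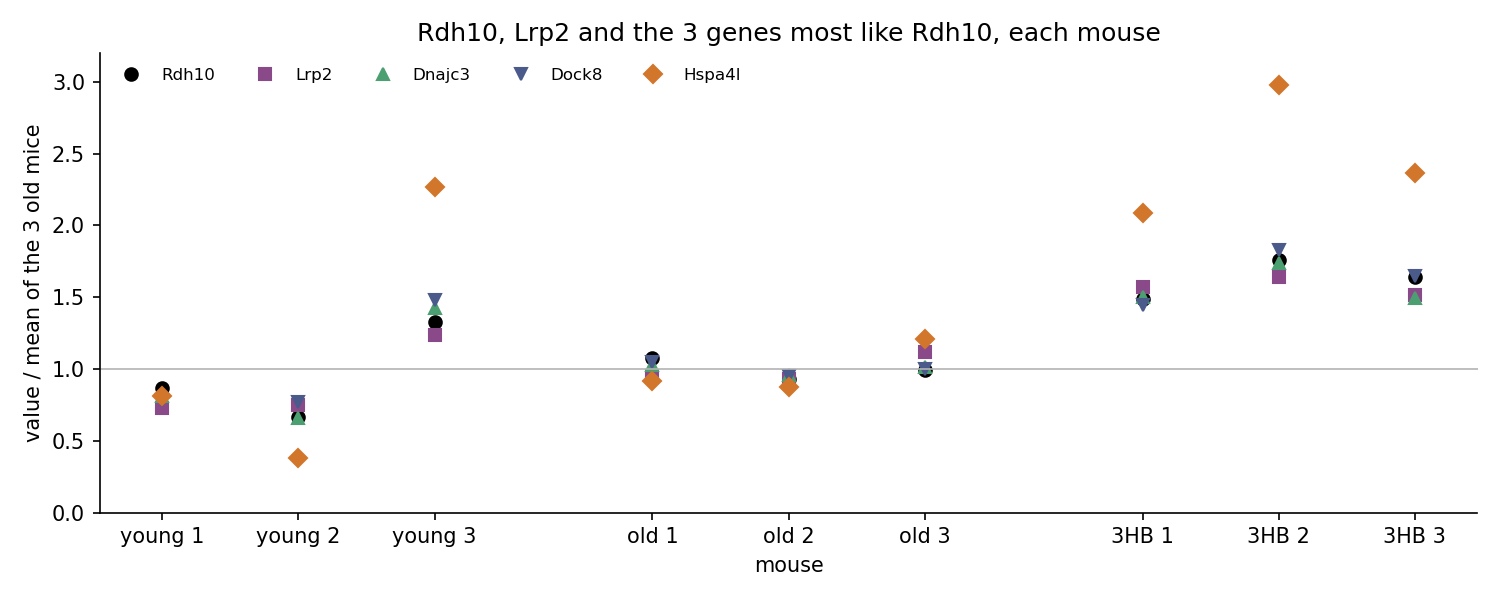
Value of Rdh10, Lrp2 and the 3 genes most like Rdh10 in each mouse, divided by the mean of the 3 old mice (y axis, linear, 1 marks the old mean). The 3HB mice and young mouse 3 lie above the old mean for all 5 genes, and young mice 1 and 2 lie below it.

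Aldh1a1 encodes a cytosolic retinaldehyde dehydrogenase. Its level was raised in the old mice over the young, and 3HB and old mice were similar apart from 1 high mouse in either group. Young mice 1 to 3 were at 4.60, 1.94 and 4.38, old mice 1 to 3 at 9.11, 10.86 and 21.68, and 3HB mice 1 to 3 at 9.0, 31.86 and 10.99. Every old and 3HB mouse was above every young mouse. The means were 3.64 ± 1.48 in young, 13.9 ± 6.81 in old and 17.3 ± 12.7 in the 3HB mice (SD, n = 3 each), a 3.81-fold ratio of old to young. On the log2 scale old minus young was 1.65 ± 0.47 (SE). This was the contrast for which Aldh1a1 was listed, and 92.5% of the 389 genes on the age list had no overlap between old and young mice, with a median log2 difference of 1.14.

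Aldh1a1 was not listed for 3HB. The log2 difference of 3HB minus old was 0.18 ± 0.64 (SE), two-sided exact permutation p = 0.8, and the groups overlapped. It was -0.35 without 3HB mouse 2, -0.05 without old mouse 1, 0.06 without old mouse 2, 0.38 without 3HB mouse 3, 0.51 without 3HB mouse 1 and 0.53 without old mouse 3. Old mouse 3 and 3HB mouse 2 stood apart for Aldh1a1, and the other mice of both groups lay between 9.0 and 10.99. The same pair was highest in its groups for 135 of the 489 genes (27.6%). The genes most like Aldh1a1 were Tifa (r = 0.97), an adaptor in NF-kB signalling, Bmp6 (r = 0.95), a bone morphogenetic protein, and Cldn1 (r = 0.95), a tight junction protein, all on the age list. With group means taken out their correlations were 0.90, 0.87 and 0.92. Bmp6, for one, was at 33.55 in old mouse 3 and 36.98 in 3HB mouse 2, against 20.27 to 25.08 in the other 20-month mice.

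Aldh1a2 encodes the retinaldehyde dehydrogenase that supplies most retinoic acid to the embryo. Its level was low in young mice and higher in both groups of 20-month mice. Young mice 1 to 3 were at 0.54, 0.35 and 0.85, old mice 1 to 3 at 3.84, 2.67 and 1.87, and 3HB mice 1 to 3 at 2.61, 2.35 and 2.07. No 20-month mouse overlapped the young mice, and the 3HB mice all lay inside the range of the old mice. The means were 0.58 ± 0.25, 2.79 ± 0.99 and 2.34 ± 0.27 (SD, n = 3 each), with a 4.82-fold ratio of old to young. Old minus young was 1.24 ± 0.25 (SE) on the log2(value + 1) scale, which understates the fold at such low values. The contrast that was not listed, 3HB minus old, was -0.15 ± 0.23 (SE), two-sided exact permutation p = 0.6. It was 0.04 without old mouse 1, -0.09 without 3HB mouse 3 and -0.34 without old mouse 3.

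The 3 genes most like Aldh1a2 were a pair of immunoglobulin kappa variable segments (r = 0.97 and 0.96) and Ifi44l (r = 0.96), an interferon-induced gene. With group means taken out the correlations were 0.89 and 0.62 for the segments and 0.82 for Ifi44l. Of 6 B and plasma cell markers, 5 were on the lists, and their summed level was 212.8, 40.3 and 66.9 in young mice 1 to 3, 2983, 3083 and 853.5 in old mice 1 to 3 and 2352, 2305 and 3439 in 3HB mice 1 to 3. Mzb1 was listed at 0 in young mouse 1, and no other of the 5 was at 0 in any mouse. Both the sum and Aldh1a2 were higher in every 20-month mouse than in any young mouse, and within groups their order differed. Old mouse 3 was the lowest old mouse for both, while old mouse 2 had the highest old sum but not the highest Aldh1a2, and 3HB mouse 3 had the highest sum of all with the lowest Aldh1a2 of its group. Most of the sum was Igkc, so its order was mainly that of 1 gene. Cd79a alone was at 3.68, 3.55 and 0.70 in old mice 1 to 3, the order of Aldh1a2. It was at 2.37, 1.65 and 2.66 in 3HB mice 1 to 3, another order. Igkc, Jchain, Mzb1 and Ighm had other orders than Aldh1a2 in old mice. Of 6 myeloid markers, 2 were listed (Lyz2 and Cd74), summing to between 82.6 and 158.2 in young, 246.8 and 520.9 in old and 201.0 and 240.7 in the 3HB mice. Most of that sum was Cd74, which was itself on both lists. Cd74 ran from 223.8 to 481.1 in old and from 166.8 to 197.9 in 3HB mice. Lyz2 overlapped between these groups, at 22.92 to 72.01 in old and 34.25 to 42.87 in 3HB mice, so the 2 markers differed. The part of B, plasma and myeloid cells in the levels of Aldh1a2 and Aldh1a1 was not tested. Mesothelial cells, which make Aldh1a2 in the embryo, had 1 of 5 markers listed, Upk1b, which is also a urothelial gene, at 0.28 or less in all mice but young mouse 3, where it was 2.73. Among markers of thick ascending limb, distal tubule, collecting duct, podocytes, endothelium, stroma, adrenal cortex and adipocytes, 0 were listed, as were 0 of 4 further urothelial markers, and of 4 T cell markers only Cd8a was. It was listed for age at 4.22, 0.47 and 5.37 in young, 0.80, 0.51 and 0.33 in old and 0.71, 0.47 and 0.94 in the 3HB mice, with a lower mean in the old mice than in the young, as for Aldh1a7 and unlike the B, plasma and myeloid markers. Its part in the level of Aldh1a7 was not tested.

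Aldh1a7 encodes a rodent paralog of ALDH1A1 that has little activity on retinal. It went the other way with age, being lower in old than in young mice. Young mice 1 to 3 were at 6.47, 1.22 and 3.52, old mice 1 to 3 at 0.16, 0.92 and 0.37, and 3HB mice 1 to 3 at 0.47, 1.40 and 0.76. Young and old mice did not overlap, but young mouse 2 came close to old mouse 2, and 3HB mouse 2 was above young mouse 2. The means were 3.74 ± 2.63, 0.48 ± 0.39 and 0.88 ± 0.48 (SD, n = 3 each). Old minus young was -1.54 ± 0.55 (SE) on the log2(value + 1) scale, the contrast for which it was listed. That scale understates the fold at such low values, and the old mean was 0.129 of the young mean (-2.95 as a log2 ratio). 3HB minus old, with a 1.81-fold ratio of means (0.86 as a log2 ratio), was 0.34 ± 0.30 (SE), two-sided exact permutation p = 0.4, with overlap, and it was 0.15 without 3HB mouse 2, 0.18 without old mouse 1 and 0.54 without old mouse 2. The genes most like it were Tmem221 (r = 0.98), Sult1a1 (r = 0.92), a sulfotransferase of phenols, and Prkcq (r = 0.91), protein kinase C theta, with correlations of 0.94, 0.88 and 0.72 once group means were taken out.

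For the 3 Aldh1a genes together, 0 had 3HB and old mice that did not overlap. Among the 376 genes listed for age only, 11.7% had no overlap in that contrast, and their median log2 difference was 0.07, with 218 genes higher and 155 lower in 3HB mice. Both contrasts share the old mice, so a high or low old mouse moves a gene's differences in opposite directions.

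**Figure D3:**
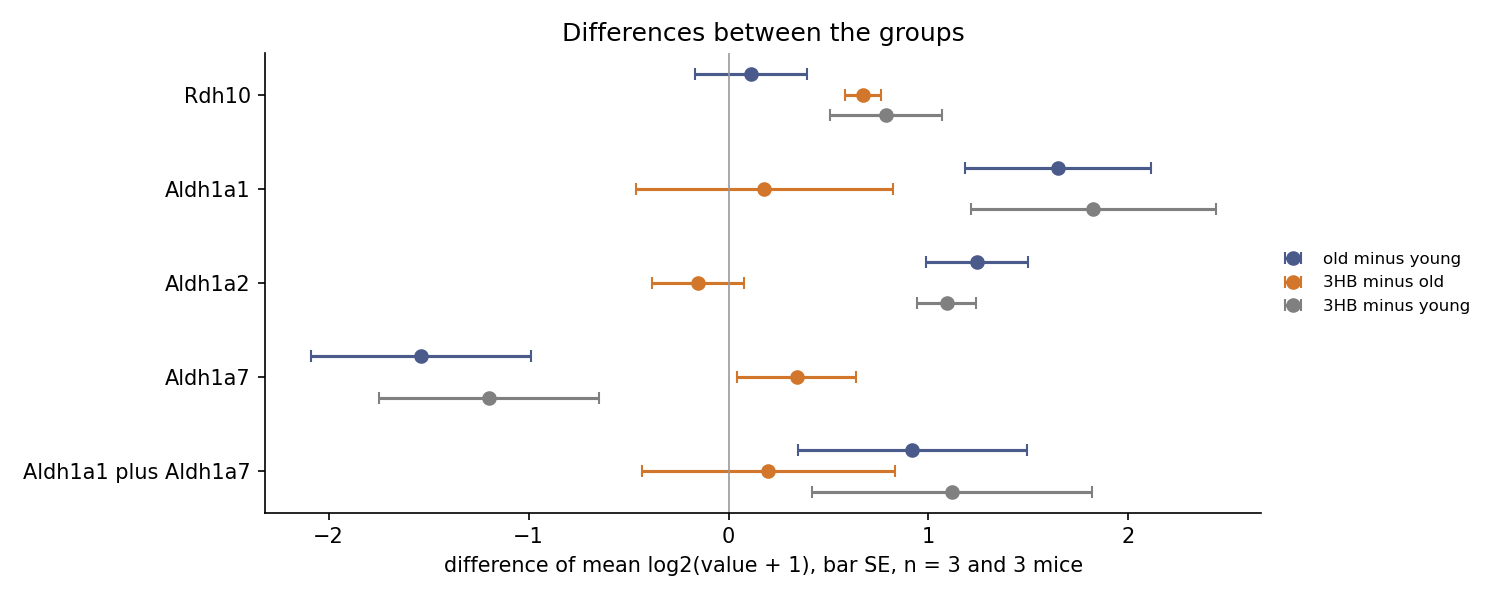
Difference of mean log2(value + 1) between groups (x axis, points) with its SE (bars), for each gene and for the sum of Aldh1a1 and Aldh1a7, from 3 and 3 mice. Old minus young lies above 0 beyond its SE for Aldh1a1 and Aldh1a2 and below 0 for Aldh1a7, and 3HB minus old lies at 0.67 for Rdh10.

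The balance between the paralogs Aldh1a1 and Aldh1a7 differed between the ages. Aldh1a7 made up 58.4%, 38.6% and 44.6% of the sum of Aldh1a1 and Aldh1a7 in young mice 1 to 3, then 1.73%, 7.81% and 1.68% in old mice and 4.96%, 4.21% and 6.47% in 3HB mice. The lowest young mouse was far above the highest 20-month mouse, and old and 3HB mice overlapped. The mean share was 47.2 ± 10.2% in young, 3.74 ± 3.53% in old and 5.21 ± 1.15% in the 3HB mice (SD, n = 3 each). Since both genes were listed for age, the difference between young and old mice is a description. Between 3HB and old mice the share differed by 1.48 percentage points (SE 2.14, two-sided exact permutation p = 0.6). The share depends little on scaling for length, the transcripts compared being 2053 and 2066 bases long.

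The sum of both genes overlapped between the ages. It was 11.07, 3.16 and 7.90 in young, 9.27, 11.78 and 22.05 in old and 9.47, 33.26 and 11.75 in the 3HB mice. Young mouse 1, with the highest Aldh1a7, was above old mouse 1. The log2 difference was 0.92 ± 0.57 (SE) for old minus young and 0.20 ± 0.63 (SE) for 3HB minus old, the latter with two-sided exact permutation p = 0.7, and leaving out single mice moved the first between 0.48 (without young mouse 2) and 1.25 (without young mouse 1), with 0.58 without old mouse 3. The second was -0.32 without 3HB mouse 2, -0.05 without old mouse 1, 0.11 without old mouse 2, 0.39 without 3HB mouse 3, 0.53 without 3HB mouse 1 and 0.53 without old mouse 3.

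**Figure D4:**
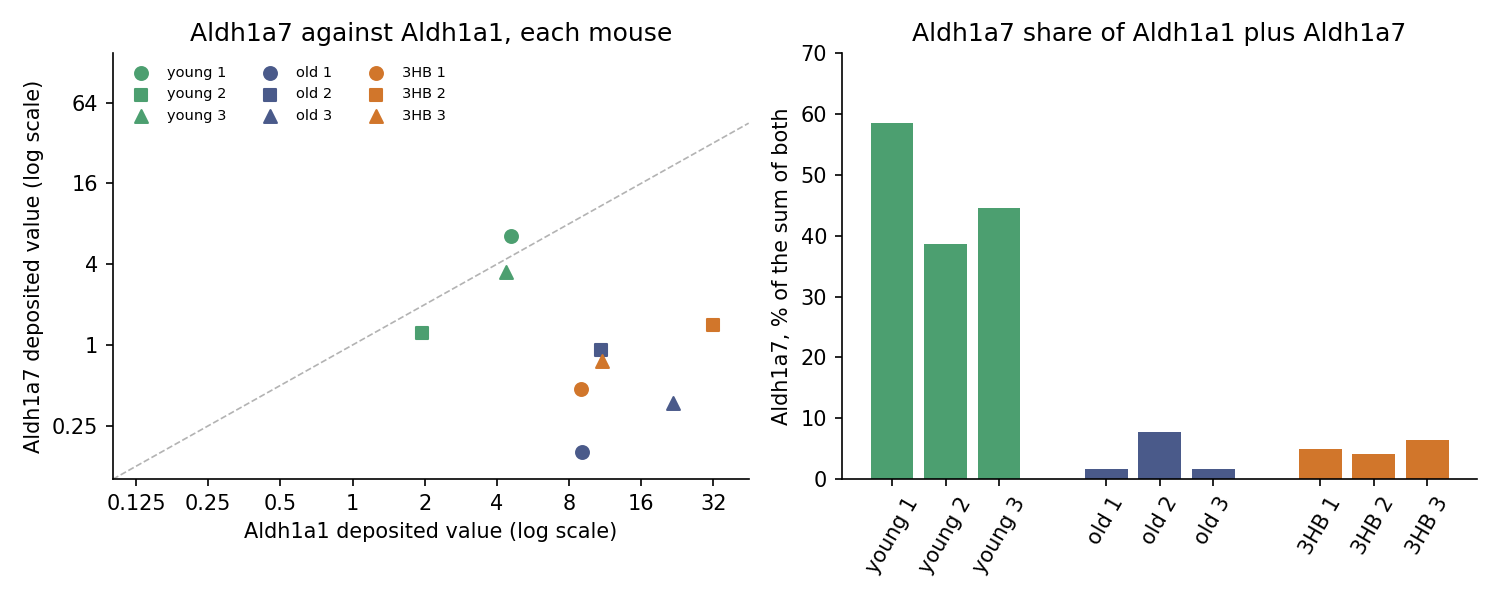
Left, Aldh1a7 against Aldh1a1 in each mouse, both axes logarithmic, with a dashed line where the values are equal. Right, Aldh1a7 as a percentage of the sum of both genes in each mouse, 38.6% or more in young mice and 7.81% or less in all 20-month mice.

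The order of levels among the 4 genes differed between mice. Rdh10 was the highest in 7 of 9 mice, and Aldh1a1 exceeded it in old mouse 3 and 3HB mouse 2. In both 20-month groups Rdh10 and Aldh1a1 overlapped, so their order was within the spread. In young mice Aldh1a2 was the lowest gene in 3 of 3, and Aldh1a1 and Aldh1a7 overlapped. In the 20-month mice Aldh1a7 was the lowest in 6 of 6 and did not overlap Aldh1a2 in either group. The ratio of Rdh10 to Aldh1a1 ran from 3.30 to 6.04 in young, 0.80 to 2.08 in old and 0.97 to 2.90 in 3HB mice.

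The rest of the pathway was looked up by name. Of 113 other genes of retinoid uptake, storage, conversion, breakdown, receptors, targets and other aldehyde dehydrogenases, 4 (3.54%) were on the lists, beside 347 of the 21951 protein-coding genes of the GENCODE annotation (1.58%). The annotation includes genes that the kidney does not express, and the pathway list was chosen with earlier results known, so nothing is read from these shares. At that background share, the 0 of 12 receptor genes and 0 of 15 other aldehyde dehydrogenases on the lists say nothing about those families, and Aldh1a3, the remaining retinaldehyde dehydrogenase of the subfamily, was not on either list. Counting the members, 5 of these pathway genes were listed for age, 4 higher and 1 lower in old mice, and 3 were listed for 3HB, 2 higher and 1 lower in 3HB mice. The age list as a whole had 271 genes higher and 118 lower, and the 3HB list 43 higher and 70 lower with a median log2 difference of -0.42.

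Lrp2 encodes megalin, the endocytic receptor that takes up filtered retinol-binding protein in the proximal tubule. It was listed for 3HB and was at 89.42, 87.86 and 105.30 in old mice and 148.08, 154.52 and 143.00 in 3HB mice. All 3HB mice were above all old mice, and the log2 difference was 0.66 ± 0.09 (SE), next to 0.67 for Rdh10. Young mice were at 68.59, 70.38 and 116.60, again with young mouse 3 the highest, and old minus young was 0.18 ± 0.26 (SE, two-sided exact permutation p = 0.6). Ugt1a1, a glucuronosyltransferase that conjugates bilirubin and can conjugate retinoic acid, was listed for 3HB in the other direction. It was at 8.26, 8.81 and 5.83 in old and 1.06, 4.98 and 2.36 in 3HB mice, while young mice spread from 0.54 to 8.89 (old minus young 0.85 ± 0.84 (SE), two-sided exact permutation p = 0.7). Ugt1a1 shares its last exons with other Ugt1a genes, so its reads may be divided among them.

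Stra6, the membrane receptor for the retinol carrier, and Lrat, which stores retinol as esters, were listed for age, both higher in old mice and both at low level. Stra6 was at 0.24, 0.13 and 0.98 in young, 1.60, 0.84 and 2.41 in old and 1.19, 1.94 and 0.81 in the 3HB mice, and old mouse 2 was below young mouse 3. Lrat was at 0.13, 0.04 and 0.25 in young, 0.28, 0.35 and 1.80 in old and 0.32, 0.75 and 0.15 in the 3HB mice, and its old mean rested on old mouse 3. For 3HB minus old, Stra6 gave -0.16 ± 0.33 and Lrat -0.29 ± 0.41 (SE, log2 scale, two-sided exact permutation p = 0.7 and 0.6). Old mouse 3 and 3HB mouse 2 were both the highest of their groups for 4 of the 8 listed pathway genes, Aldh1a1, Lrat, Stra6 and Lrp2, beside 27.6% of all listed genes. In Aldh1a7, Rdh10 and Ugt1a1, 3HB mouse 2 was the highest 3HB mouse and old mouse 3 was not the highest old mouse, and in Aldh1a2 neither was.

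A retinoid term stood in the deposited annotation of 19 of the 489 genes. Of these, 15 were listed for age (11 higher and 4 lower in old mice) and 4 for 3HB (3 higher and 1 lower in 3HB mice). The KEGG pathway of retinol metabolism held 7 listed genes, the 4 members with Lrat, Ugt1a1 and Cyp4a12b. Cyp4a12b, a fatty acid hydroxylase with a close copy in Cyp4a12a, was at 0.81, 1.20 and 1.38 in young, 3.27, 5.88 and 2.69 in old and 3.99, 5.34 and 5.76 in the 3HB mice. It was higher in every 20-month mouse than in any young mouse, and 3HB minus old was 0.33 ± 0.30 (SE, two-sided exact permutation p = 0.4). Ncoa2, a coactivator of nuclear receptors named after its values were seen, was listed for 3HB at 4.91, 4.92 and 5.98 in old and 8.50, 9.48 and 7.85 in 3HB mice, with young mouse 3 at 6.90 above the other young mice at 2.07 and 3.30. Its old minus young difference was 0.41 ± 0.41 (SE, two-sided exact permutation p = 0.4).

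The retinoid metabolic process term of the annotation held 6 genes, Aldh1a1, Aldh1a2 and 4 predicted genes that carry copies of Akr1b3. Akr1b3 encodes aldose reductase, which turns glucose into sorbitol and belongs to a family with members that reduce retinal. It was not on either list. Gm6736 (chr12:13455023-13455970, minus strand), Gm12138 (chr11:40672906-40673856, minus strand) and Gm6644 (chr1:55444074-55445024, minus strand) are annotated as processed pseudogenes and were 99.5%, 99.1% and 99.7% identical to Akr1b3 over their whole aligned length of 948, 951 and 951 bases. Gm38056 (chr1:55440904-55445930, plus strand), a gene model awaiting experimental proof, spans Gm6644 on the opposite strand and matched Akr1b3 at 99.7% over 1352 bases in the reverse orientation. With such copies, reads may be divided among them and Akr1b3, and it was not stated whether counting used strand, without which reads over the 951 bases of Gm6644 can fit Gm38056 too, so their values are uncertain.

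Gm6644 was listed at 0 in all 3 young mice and was at 17.26, 12.03 and 14.93 in old and 26.89, 13.91 and 19.93 in 3HB mice. Gm12138 was listed at 0 in the young mice, at 5.03, 8.90 and 2.15 in old and at 3.83, 3.38 and 3.62 in 3HB mice. Gm6736 was likewise listed at 0 in the young mice, at 2.71, 2.78 and 2.56 in old and at 3.70, 1.83 and 2.25 in 3HB mice. Gm38056 was at 0.15, 0.30 and 0.14 in young, 10.91, 10.20 and 6.60 in old and 8.85, 6.47 and 8.07 in the 3HB mice. All 4 were on the age list for this contrast, and none was on the 3HB list. For 3HB minus old the groups overlapped in all 4, with log2 differences of 0.40 ± 0.30 for Gm6644, -0.31 ± 0.48 for Gm12138, -0.07 ± 0.22 for Gm6736 and -0.20 ± 0.23 for Gm38056 (SE), and two-sided exact permutation p of 0.3, 0.7, 0.8 and 0.4.

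**Figure D5:**
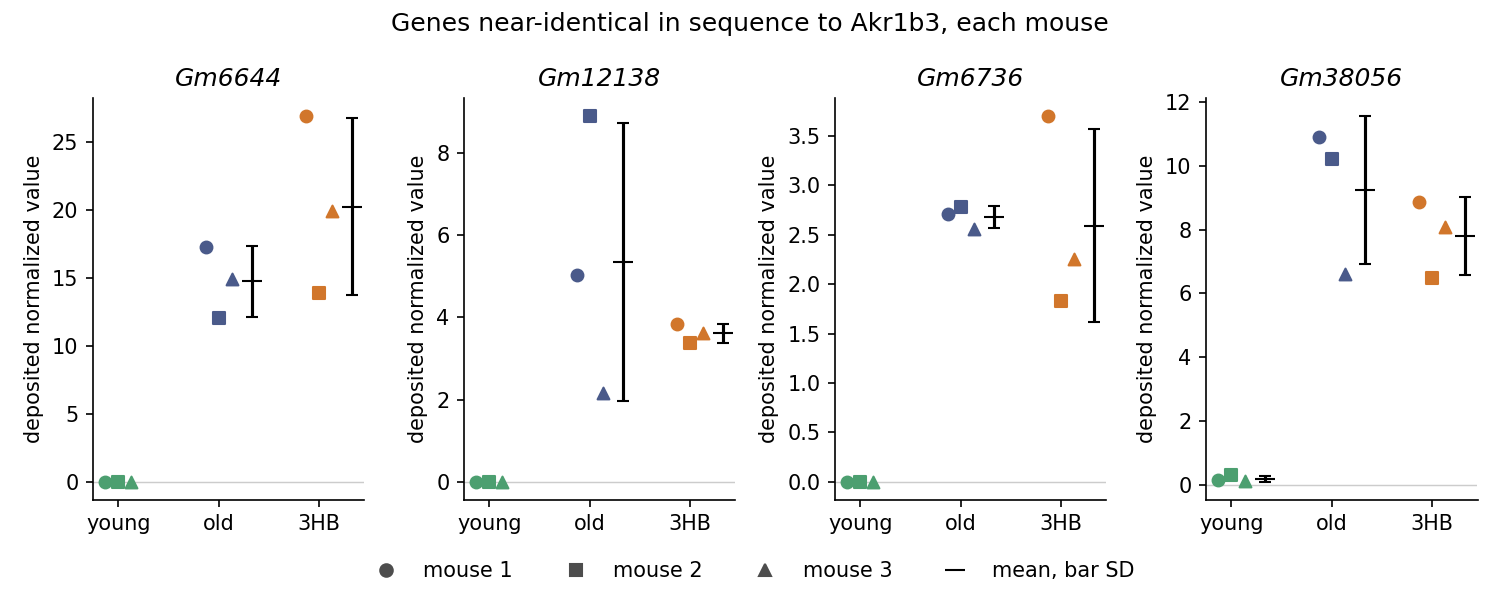
Deposited normalized value (y axis, linear, own scale in each panel) of the 4 predicted genes near-identical to Akr1b3 in each mouse, with mean and SD where the group is not all at 0. The young mice are at 0 in 3 panels and at 0.30 or less for Gm38056, and old and 3HB mice overlap in every panel.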

How the data were processed

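RNA from whole kidney of 9 mice was sequenced. Per the labels' processing notes, the submitters used CASAVA, HISAT2 and StringTie with GRCm38, with versions not given in the sources used here. The authors deposited normalized values to 2 decimals, in a unit that was not stated, in 2 tables, named for 3HB against old and young against old, each with annotation and all 9 mice for the genes listed there. The criterion for listing was not given in the sources used here. Values were compared as log2(value + 1), with a pseudocount of 1, as differences of group means with SE. For contrasts for which a gene was not listed, 16 exact permutation tests are reported, with the sum and the share of Aldh1a7 among them, two-sided, with all 20 splits of the mice enumerated. No p-value was adjusted and no fit across all genes was possible, since only listed genes were analysed here. The mice are separate samples by their labels, and p-values measure the spread between them. Members, lists and motifs were chosen with earlier results of these data known. Named besides members were pathway genes on the lists, genes of the same annotation terms and the 3 genes most like each member among genes with a group mean of at least 1. Sequences came from RefSeq (GRCm38.p6) and GENCODE M21, aligned with BLAST 2.17.0. Python 3.11.15, numpy 2.4.6 and scipy 1.17.1 were used, and scripts were tested on simulated data. Alternatives were other pseudocounts, ratios, medians and left-out mice.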

Additional observations from a re-analysis of the deposited data

How the results depend on the processing

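Of 162 alternative values, 8 had another sign, none of them in a contrast for which a gene was listed. In the members' listed contrasts the groups did not overlap, so these alternatives could not change the sign there. With a pseudocount of 0.1, old minus young became 2.10 for Aldh1a2 and -2.66 for Aldh1a7, 3HB minus old became 0.85 for Aldh1a7, and 3HB minus young became 1.91 for Aldh1a2 (1.09 with a pseudocount of 1). With log2 ratios of group means and no pseudocount the corresponding values were 2.27, -2.95, 0.86 and 2.01, and 3HB minus young of Aldh1a7 was -2.09 (-1.20 with a pseudocount of 1, with overlap). A smaller pseudocount shrinks low values less. At a difference of at least 1 on the log2(value + 1) scale, 4 of the 8 pathway genes and 11 of the 19 genes with a retinoid term remained. That limit drops Rdh10 (0.67) and Lrp2 (0.66), both listed for 3HB. It also drops Lrat and Stra6, at old-to-young ratios of means of 5.79 and 3.59. With medians the 3HB minus old difference of the sum of Aldh1a1 and Aldh1a7 was -0.0034. Leaving out single mice, or old mouse 3 and 3HB mouse 2 together (chosen after seeing the data), gave old minus young from 1.30 to 1.88 for Aldh1a1, 1.05 to 1.43 for Aldh1a2, -2.0 to -1.13 for Aldh1a7 and -0.10 to 0.37 for Rdh10, and 3HB minus old from -0.35 to 0.53, -0.34 to 0.04, 0.11 to 0.54 and 0.61 to 0.73. For the sum of Aldh1a1 and Aldh1a7 the ranges were 0.48 to 1.25 and -0.32 to 0.53. The share of Aldh1a7 was added after seeing the data, and with medians it differed by 3.24 percentage points between 3HB and old mice.

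The labels number the mice 1 to 3 in each group, but deviations of same-numbered mice correlated between -0.24 and 0.16 over 489 genes, with 2 of 9 pairs over 0.1, so the numbers did not pair the mice. A replicate block leaves each mean difference as it is (0.67 for Rdh10, 3HB minus old), and its exact sign-flip p cannot fall below 0.25. Depth was unknown, and low values, such as those of Aldh1a7, Stra6, Lrat and the predicted genes listed at 0, are the ones it limits most.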
